A study of Mus musculus with 6 samples.

Results

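Bone morphogenetic proteins (BMPs) are secreted ligands of the TGF-beta superfamily that bind pairs of type I and type II serine/threonine kinase receptors. The receptors phosphorylate SMAD1, SMAD5 and SMAD9, which join SMAD4 and enter the nucleus. Among the genes they induce most directly are *Id1*, *Id2* and *Id3*, whose proteins dimerize with basic helix-loop-helix (bHLH) factors and keep them from DNA, and *Smad6*, whose product feeds back to block the receptors. In the liver BMP6 is best known as the signal, made largely by sinusoidal endothelial cells, through which hepatocytes adjust the iron hormone hepcidin.

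Here 10 genes of this pathway were read by symbol from the deposited RNA-seq table of mouse liver tumor cell lines: the ligands *Bmp2*, *Bmp4*, *Bmp6* and *Bmp7*, the type I receptor *Bmpr1a*, the type II receptor *Bmpr2*, and the targets *Id1*, *Id2*, *Id3* and *Smad6*. All 10 were found among the 20856 genes with values, and 9 of them were among the 11617 genes that passed the filter on low values (RPKM of 1 or more in 3 or more of the 6 lines). *Bmp7* did not, and *Bmp6* passed only through the sg*Trp53* lines. The question was whether the *Id* genes and *Smad6* were lower in the lines in which *Bmp6* was lower.

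The lines had been grown from tumors of adult female C57BL/6 mice, into whose livers a *Myc* transposon and a CRISPR-Cas9 plasmid had been delivered by hydrodynamic tail vein injection. All lines therefore carry the *Myc* transposon, and none received a further treatment. The plasmid targeted *Trp53* in 3 lines (Myc;sgp53/Cas9 in the labels, sg*Trp53* here) and *Kmt2c*, which encodes the histone methyltransferase MLL3, in the other 3 (Myc;sgMll3/Cas9, sg*Kmt2c* here). There was no line with both genes untargeted, so a difference cannot be assigned to either gene, and the lines are not isogenic. Primary cultures were grown on collagen until no fibroblasts were seen. According to the methods, the lines of a genotype came from different mice. In the labels, sg*Kmt2c* lines 2 and 3 are named 2A and 2T1, which share a digit.

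RPKM, the reads on a gene scaled by its transcript length and by the library total, rested on 5312182 to 6878625 reads on listed genes per sg*Trp53* library and 3680068 to 4704539 per sg*Kmt2c* library, so every sg*Kmt2c* library was the shallower. All 6 libraries shared the lanes of a single flow cell. *Trp53* transcript separated the genotypes (17.2 to 19.4 against 92.2 to 124 RPKM), and *Kmt2c* transcript did not (18.4 to 24.2 against 9.51 to 25.0 RPKM). The lines also differed in character within each genotype. The summed RPKM of 6 epithelial markers ran from 63.5 to 1013 in the sg*Trp53* lines and from 238 to 6801 in the sg*Kmt2c* lines, lowest in line 2 of each genotype. That of 9 hepatocyte markers ran from 25.0 to 75.3 and from 2.75 to 5685, with the top value in sg*Kmt2c* line 1, where *Apob* and *Hnf4a* accounted for most of it, while *Alb* did not exceed 4.36 RPKM in any line. RPKM divides by the deposited transcript length, 1118 bases for *Apob* and 431 for *Hnf4a*, so sums over genes depend on it. The 12 fibroblast and stellate markers summed to 18.8 to 996 and to 0.282 to 156 RPKM, with *Lrat* at 0 throughout. The sum was highest in line 2 of each genotype, but *Col3a1* alone gave 814 of the 996 RPKM, and without it the sg*Trp53* lines stood at 15.4, 182 and 270 RPKM, with line 3 the highest. The part of these differences in the results that follow was not tested.

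*Bmp6* was the only ligand among the 4 whose lines did not overlap between the genotypes, as held in the lower direction for 10.4% of all genes tested. It stood at 33.9, 12.4 and 13.7 RPKM in sg*Trp53* lines 1, 2 and 3, from 498, 159 and 228 reads. The sg*Kmt2c* lines had 0.881, 0.113 and 0.971 RPKM, from 10, 1 and 10 reads. The mean was 30.6-fold higher in the sg*Trp53* lines, with a log2 fold change on the log2(RPKM + 1) scale of -3.57 (95% confidence interval -4.65 to -2.49). This did not pass an adjusted p-value under 0.05 (adjusted p = 0.0611, limma, Benjamini-Hochberg over all genes tested). *Bmp6* was taken up with this difference known, so it is a starting point here and not independent evidence. *Bmp6* lies on chromosome 13 of GRCm38, from 38345716 to 38499728, and overlaps no other gene of the table.

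The other ligands followed no genotype. *Bmp4* (chromosome 14, from 46383520 to 46390669), which patterns the early embryo and is made by mesenchyme in many organs, lay at 1.03, 31.7 and 4.08 RPKM across the sg*Trp53* lines, compared with 19.6, 33.4 and 3.29 RPKM across the sg*Kmt2c* lines. Line 2 of each genotype was the highest, and the spread within a genotype reached 30.7-fold. The log2 fold change of 1.06 had a 95% confidence interval from -1.73 to 3.85 (adjusted p = 0.785, limma). *Bmp4* overlaps 2 other genes of the table, and reads were not known to be counted by strand. *Bmp2* (chromosome 2, from 133552159 to 133562885), its closest relative, was low in all lines but sg*Kmt2c* line 3. It lay at 1.11, 1.53 and 0.653 RPKM against 2.21, 0.610 and 8.09 RPKM (log2 fold change 0.80, 95% confidence interval -0.70 to 2.31, adjusted p = 0.722, limma). Without sg*Kmt2c* line 3 the log2 fold change was 0.14. *Bmp7* (chromosome 2, from 172868012 to 172940321), a ligand of kidney and skeletal development close to *Bmp6* in sequence, had 2, 0 and 11 reads across the sg*Trp53* lines, compared with 72, 0 and 2 in the sg*Kmt2c* lines. Its only value above 1 RPKM was the 4.16 RPKM of sg*Kmt2c* line 1, and its lines overlapped (exact permutation test, two-sided p = 0.7).

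Added together, the RPKM of the 4 ligands did not separate the genotypes, and the lines differed in which ligand held the largest share. The sum was 36.1, 45.6 and 18.9 RPKM across the sg*Trp53* lines, compared with 26.9, 34.1 and 12.5 RPKM across the sg*Kmt2c* lines. *Bmp6* made up 93.8%, 27.2% and 72.7% of that sum in the sg*Trp53* lines and 3.27%, 0.330% and 7.78% across the sg*Kmt2c* lines. *Bmp4* held the largest share in sg*Trp53* line 2 (69.5%) and in sg*Kmt2c* lines 1 and 2 (73.0% and 97.9%), and *Bmp2* held it in sg*Kmt2c* line 3. A sum of transcripts says nothing of ligand protein or of the potency of each ligand. The sum and shares leave out other ligands, among them *Bmp8b*, whose RPKM exceeded that of *Bmp6* in every line.

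**Figure D1:**
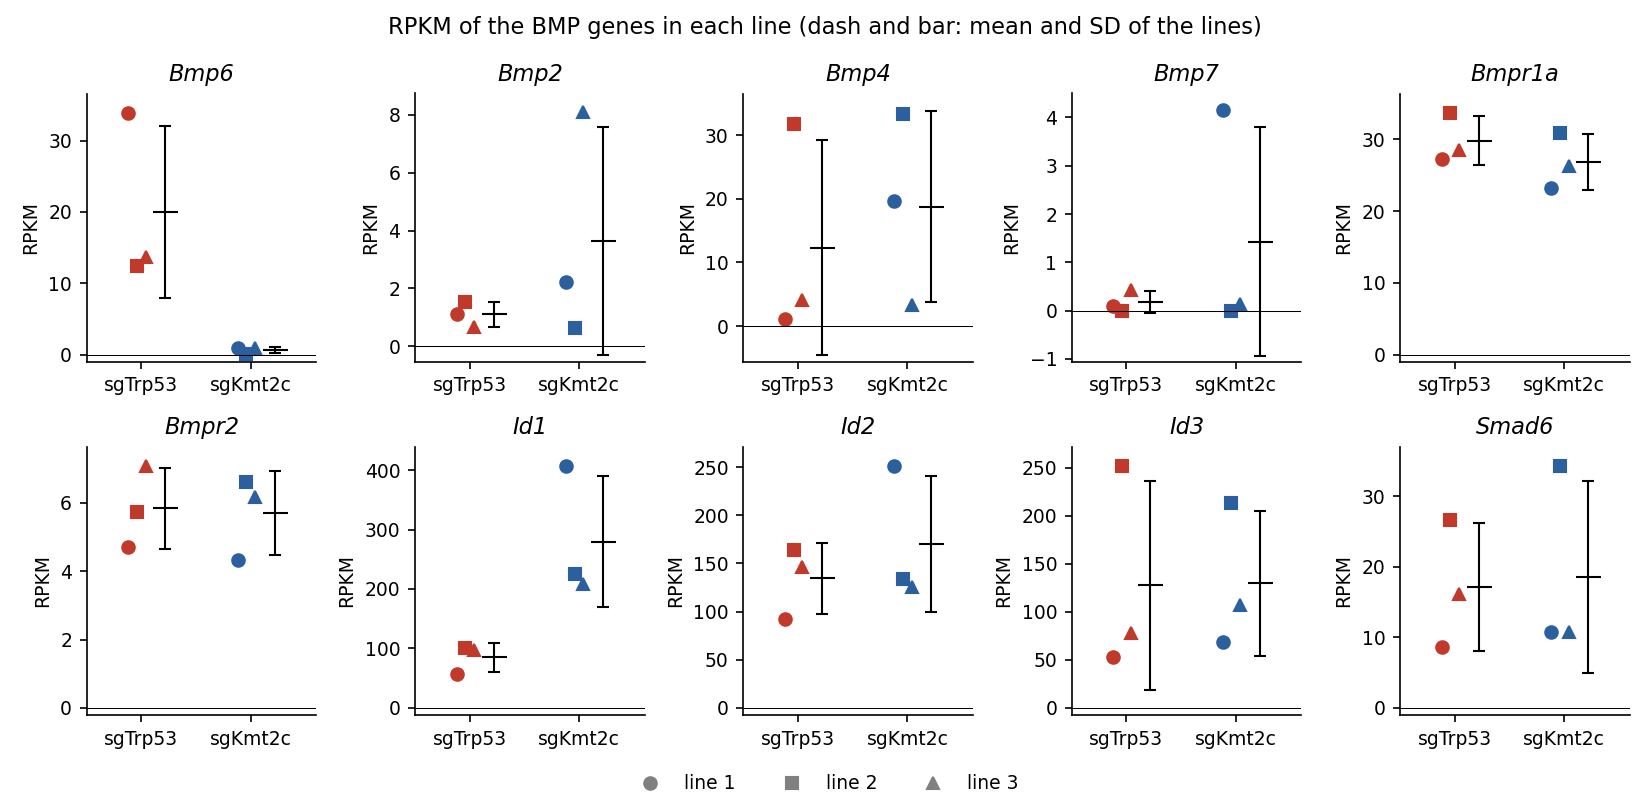
RPKM (y axis) of each of the 10 BMP genes in the 3 sgTrp53 lines (red) and the 3 sgKmt2c lines (blue), with a marker shape for each line number and a dash and bar for the mean and SD of the 3 lines. Only *Bmp6* (12.4 to 33.9 against 0.113 to 0.971 RPKM) and *Id1* (57.6 to 101 against 208 to 407 RPKM) have no overlap between the genotypes.

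**Figure D2:**
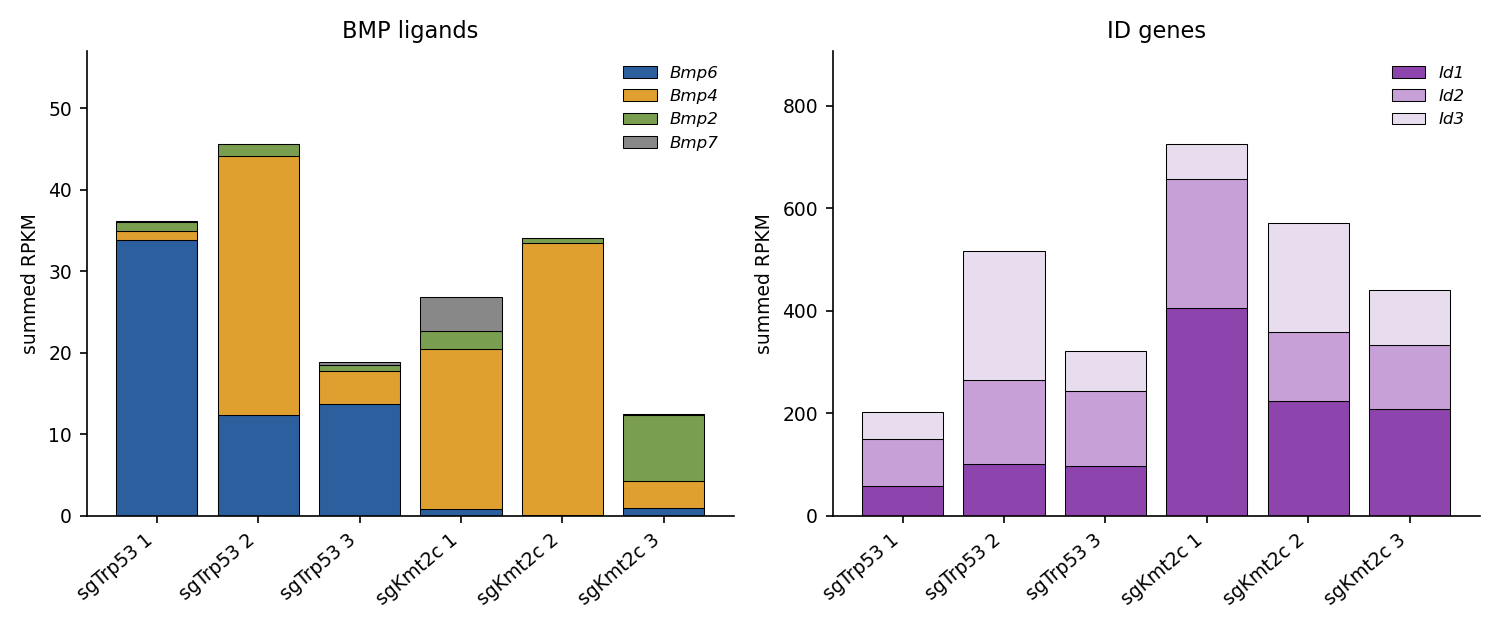
Summed RPKM (y axis) of the 4 BMP ligands (left) and the 3 *Id* genes (right) in each cell line (x axis), with the bar divided by gene. The ligand sums overlap between the genotypes (18.9 to 45.6 against 12.5 to 34.1 RPKM) although *Bmp6* is nearly missing from the sgKmt2c bars, while the *Id1* share of the *Id* sum is larger in each sgKmt2c line.

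For *Bmp6* and *Bmp4*, the ligands with the highest means among the 4, and for the target *Id2*, the 250 bases before the RefSeq start site are given 5′ to 3′ on the strand of the gene, from the RefSeq promoter table of GRCm38.p6, to show which short motifs stand in them. Capitals mark the 3 motifs searched on both strands: CAGAC, a core that SMAD proteins bind, GGCGCC, a GC-rich element described for BMP-activated SMADs, and CACGTG, the E-box bound by MYC with MAX. No 2 of the marked motifs overlap.
Bmp6 (chr13:38345466-38345715, + strand): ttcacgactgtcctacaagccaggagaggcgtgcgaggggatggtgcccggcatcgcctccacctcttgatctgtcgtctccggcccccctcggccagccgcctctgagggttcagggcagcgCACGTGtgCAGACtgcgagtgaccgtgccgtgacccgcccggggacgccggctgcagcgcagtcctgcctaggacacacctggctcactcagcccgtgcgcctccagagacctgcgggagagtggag
Bmp4 (chr14:46390670-46390919, - strand): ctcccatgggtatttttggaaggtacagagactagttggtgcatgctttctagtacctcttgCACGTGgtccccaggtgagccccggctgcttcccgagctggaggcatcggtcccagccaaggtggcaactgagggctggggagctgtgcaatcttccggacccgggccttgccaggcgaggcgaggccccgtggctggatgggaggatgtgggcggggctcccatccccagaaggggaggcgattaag
Id2 (chr12:25096093-25096342, - strand): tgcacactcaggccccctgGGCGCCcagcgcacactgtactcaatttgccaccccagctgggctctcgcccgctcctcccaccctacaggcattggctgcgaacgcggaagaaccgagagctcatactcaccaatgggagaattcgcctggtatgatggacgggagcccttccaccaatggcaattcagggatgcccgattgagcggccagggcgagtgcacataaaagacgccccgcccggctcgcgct

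The table held entries for 7 of the 10 genes, the exceptions being *Bmp2*, *Bmp7* and *Id1*. CACGTG stood 127 bases before the start of *Bmp6* and 188 bases before that of *Bmp4*, and is present in 6.02% of the 32851 windows of this length in the table. CAGAC stood 119 bases before the *Bmp6* start and at 2 places in the *Id3* window, against 42.2% of all windows. GGCGCC stood in the windows of *Id2*, *Bmpr1a* and *Bmpr2*, against 9.59% of all windows. *Smad6* held none of the 3 in this window. These are matches of letters and describe no binding.

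Neither receptor separated the genotypes. *Bmpr1a*, the type I receptor used by BMP2 and BMP4 (chromosome 14, 34410734 to 34503341), lay at 27.2, 33.7 and 28.5 RPKM across the sg*Trp53* lines, compared with 23.2, 30.9 and 26.2 RPKM across the sg*Kmt2c* lines. The lines overlapped, and the log2 fold change was -0.15 (95% confidence interval -0.63 to 0.32, adjusted p = 0.815, limma). *Bmpr2*, the type II receptor that is selective for BMPs (chromosome 1, 59763400 to 59879014), lay at 4.72, 5.73 and 7.08 RPKM and at 4.33, 6.62 and 6.17 RPKM. Its log2 fold change of -0.03 (95% confidence interval -0.67 to 0.61, adjusted p = 0.974, limma) turned to 0.04 under median-of-ratios scaling and under quantile normalization. Both intervals exclude a change of 2-fold in either direction on this scale. *Bmpr1a* overlaps another gene of the table.

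The remaining type I and type II receptors overlapped between the genotypes as well. *Acvr1*, the type I receptor preferred by BMP6 and BMP7, lay at 14.6, 29.5 and 23.1 RPKM and at 33.5, 29.0 and 25.5 RPKM (log2 fold change 0.42, 95% confidence interval -0.27 to 1.11, adjusted p = 0.710, limma). The type II receptors *Acvr2a* and *Acvr2b*, shared with activins, had log2 fold changes of 0.25 and -0.14 (adjusted p = 0.768 and 0.896, limma). *Bmpr1b* and *Acvrl1* were near the limit of detection in all lines, at no more than 0.211 and 0.224 RPKM.

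*Id1*, the target most often used to read BMP signalling, was higher in the sg*Kmt2c* lines, opposite to *Bmp6*. It lies on chromosome 2 from 152736251 to 152737410 and overlaps no other gene of the table. It stood at 57.6, 101 and 97.3 RPKM across the sg*Trp53* lines, from 328, 502 and 626 reads, and at 407, 225 and 208 RPKM across the sg*Kmt2c* lines, from 1790, 774 and 830 reads. No sg*Kmt2c* line reached down to an sg*Trp53* line, which held in this direction for 5.72% of all genes tested, and the two-sided exact permutation p was 0.1, the lowest possible with 3 lines against 3. The means were 85.3 ± 24.1 and 280 ± 110 RPKM (SD, n = 3 lines each), a 3.28-fold difference. This gave a log2 fold change of 1.68 (95% confidence interval 0.86 to 2.50, standard error 0.34), with an unadjusted p of 0.00208 that did not pass adjustment over all genes (adjusted p = 0.277, limma). Over the 16 alternative fits it stayed positive, between 1.37 without sg*Kmt2c* line 1 and 1.86 without sg*Kmt2c* line 3, with adjusted p-values from 0.229 to 0.687 (limma).

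*Id2* and *Id3* overlapped between the genotypes. *Id2* (chromosome 12, from 25093801 to 25096092) lay at 92.7, 164 and 147 RPKM across the sg*Trp53* lines, compared with 251, 134 and 125 RPKM across the sg*Kmt2c* lines. Its top value was in sg*Kmt2c* line 1, as for *Id1*, and without that line its log2 fold change of 0.30 (95% confidence interval -0.53 to 1.13, adjusted p = 0.795, limma) became -0.01. *Id3* (chromosome 4, from 136143497 to 136145755) lay at 52.99, 252 and 77.8 RPKM and at 68.2, 214 and 107 RPKM. Line 2 stood far above the other two lines of its genotype on both sides, and line 1 was the lowest on both sides. The log2 fold change of *Id3* was 0.19 (95% confidence interval -1.37 to 1.76, adjusted p = 0.934, limma).

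*Smad6* (chromosome 9, from 63953076 to 64022059), the inhibitory SMAD of the BMP branch, overlapped between the genotypes like *Id3*. It lay at 8.66, 26.6 and 16.1 RPKM across the sg*Trp53* lines, compared with 10.7, 34.2 and 10.7 RPKM across the sg*Kmt2c* lines, again highest in line 2 of each genotype. The log2 fold change was 0.03 (95% confidence interval -1.32 to 1.37, adjusted p = 0.991, limma). It was -0.50 without sg*Kmt2c* line 2 and 0.39 without sg*Trp53* line 2, so its sign depends on single lines.

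None of the 4 targets was lower in the sg*Kmt2c* lines by the log2 fold change of the reported fit, although *Id2*, *Id3* and *Smad6* turned negative when some single lines were left out and *Smad6* also with sg*Kmt2c* lines 2 and 3 averaged. The lowest 95% confidence bound of the 4 was -1.37 (*Id3*), followed by -1.32 (*Smad6*). On this scale these bounds are 0.387 and 0.402 of the sg*Trp53* level, so a lower level of these targets is not excluded. No target had an adjusted p-value below 0.05 by limma, and with limma voom on the recovered reads none did either. At an unadjusted p-value under 0.05 it was *Id1* alone, in the higher direction. Over all genes tested, 0.129% passed the adjusted threshold, 0.0516% higher and 0.0775% lower in the sg*Kmt2c* lines. The unadjusted threshold was passed by 8.58%, 3.25% higher and 5.34% lower. With quantile normalization that unadjusted split changed from 377 higher and 620 lower genes to 501 and 466. Of the BMP genes, 2 of 9 passed at an unadjusted p-value under 0.05, and the same 2 (*Bmp6* and *Id1*) had lines that did not overlap, as did 16.2% of all genes tested. The median log2 fold change of the 9 was 0.19, against -0.09 over all genes tested. Since these are RNA values of whole cultures, fewer expressing cells and less RNA per cell cannot be told apart.

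By the mean RPKM, a level per length, the 3 *Id* genes headed the 10 in both genotypes, and their own order differed. Among the sg*Trp53* lines *Id2* (135 RPKM) and *Id3* (128 RPKM) preceded *Id1* (85.3 RPKM), and among the sg*Kmt2c* lines *Id1* (280 RPKM) preceded *Id2* (170 RPKM) and *Id3* (130 RPKM). *Bmpr1a* followed on both sides. *Bmp6* took the fifth place in the sg*Trp53* lines (20.004 RPKM), ahead of *Smad6* (17.1), *Bmp4* (12.3), *Bmpr2* (5.84), *Bmp2* (1.10) and *Bmp7* (0.175 RPKM). It was the last of the 10 in the sg*Kmt2c* lines (0.655 RPKM), after *Bmp4* (18.8), *Smad6* (18.6), *Bmpr2* (5.71), *Bmp2* (3.64) and *Bmp7* (1.43 RPKM). Neighbours in these orders overlapped over the lines, except *Id1* and *Bmpr1a*, *Bmpr2* and *Bmp2*, and *Bmp2* and *Bmp7* in the sg*Trp53* lines, and *Id3* and *Bmpr1a*, and *Smad6* and *Bmpr2* in the sg*Kmt2c* lines. The sum of the 3 *Id* genes overlapped, at 203, 517 and 322 RPKM across the sg*Trp53* lines, compared with 726, 572 and 441 RPKM across the sg*Kmt2c* lines. The share of *Id1* in that sum did not overlap, but it rests on the same *Id1* values and is no separate result. It was 28.3%, 19.5% and 30.2% across the sg*Trp53* lines, compared with 56.0%, 39.3% and 47.2% across the sg*Kmt2c* lines.

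**Figure D3:**
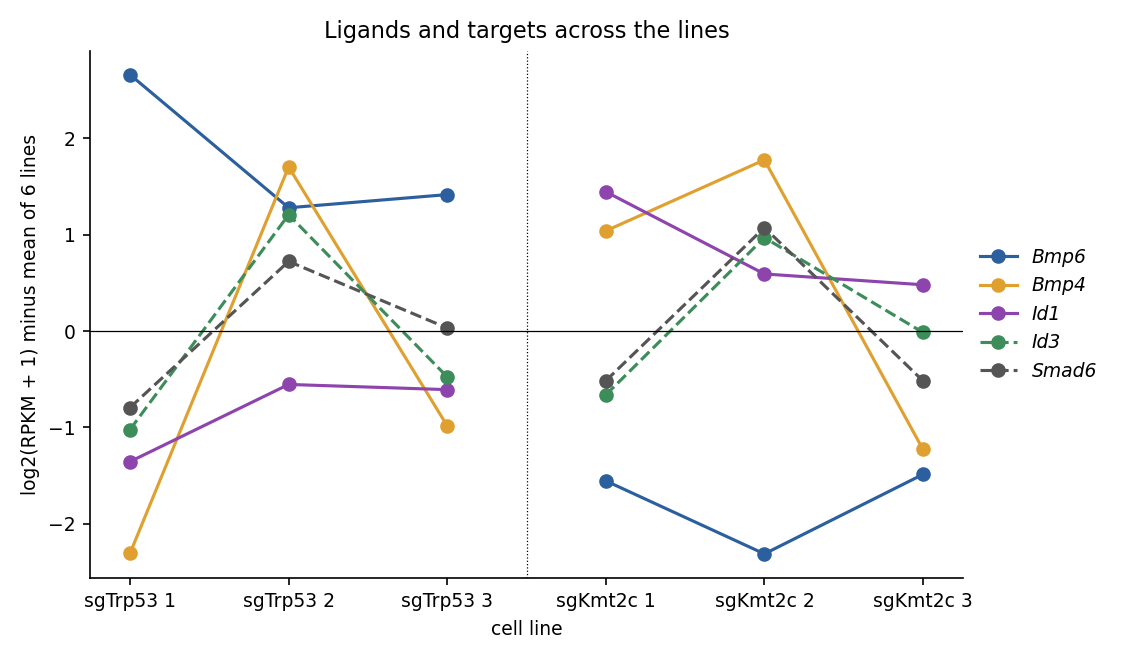
Level of *Bmp6*, *Bmp4*, *Id1*, *Id3* and *Smad6* in each cell line (x axis), as log2(RPKM + 1) minus the mean of the 6 lines (y axis), with the points of a genotype joined only to follow a gene. *Bmp6* and *Id1* lie on opposite sides of 0 in every line, while *Bmp4*, *Id3* and *Smad6* peak in line 2 of each genotype. Line numbers are labels and do not pair lines between the genotypes.

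Within each genotype, *Bmp4*, *Id3* and *Smad6* shared their highest line, numbered 2, and *Bmp6* was lowest in that line. The numbers are labels and do not pair lines between the genotypes. For *Bmp6* the order rested on 12.4 against 13.7 RPKM in sg*Trp53* lines 2 and 3. In the sg*Kmt2c* lines it rested on 1 read in line 2 against 10 in each of the others. Line 1 of the sg*Kmt2c* genotype had the middle *Bmp4* value of its genotype but the lowest *Id3* value. *Smad9*, a BMP-activated SMAD that is itself a target, was also highest in line 2, at 7.64, 32.0 and 8.0 RPKM against 0.474, 17.6 and 10.5 RPKM. So was *Atoh8*, a bHLH target gene chosen after its values were seen, at 14.1, 73.7 and 37.0 RPKM against 5.32, 77.4 and 45.0 RPKM. Others differed: *Id1* and *Id2* were highest in line 2 of the sg*Trp53* lines but in line 1 of the sg*Kmt2c* lines. The Notch target *Hes1* was lowest in line 2 of each genotype, at 8.83 and 25.1 RPKM. Line 2 of each genotype was also the lowest in all 6 epithelial markers, for *Krt8*, a keratin gene, at 9.27 and 140 RPKM. Of the 12 fibroblast and stellate markers, 4 were highest in line 2 on both sides. Over all 11617 genes tested, the deviations of the line 2 libraries correlated at 0.40, so a likeness between them is not particular to the BMP genes. The share of all genes tested that were highest in line 2 of both genotypes was not counted. The part of these line differences in the BMP genes was not tested.

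**Figure D4:**
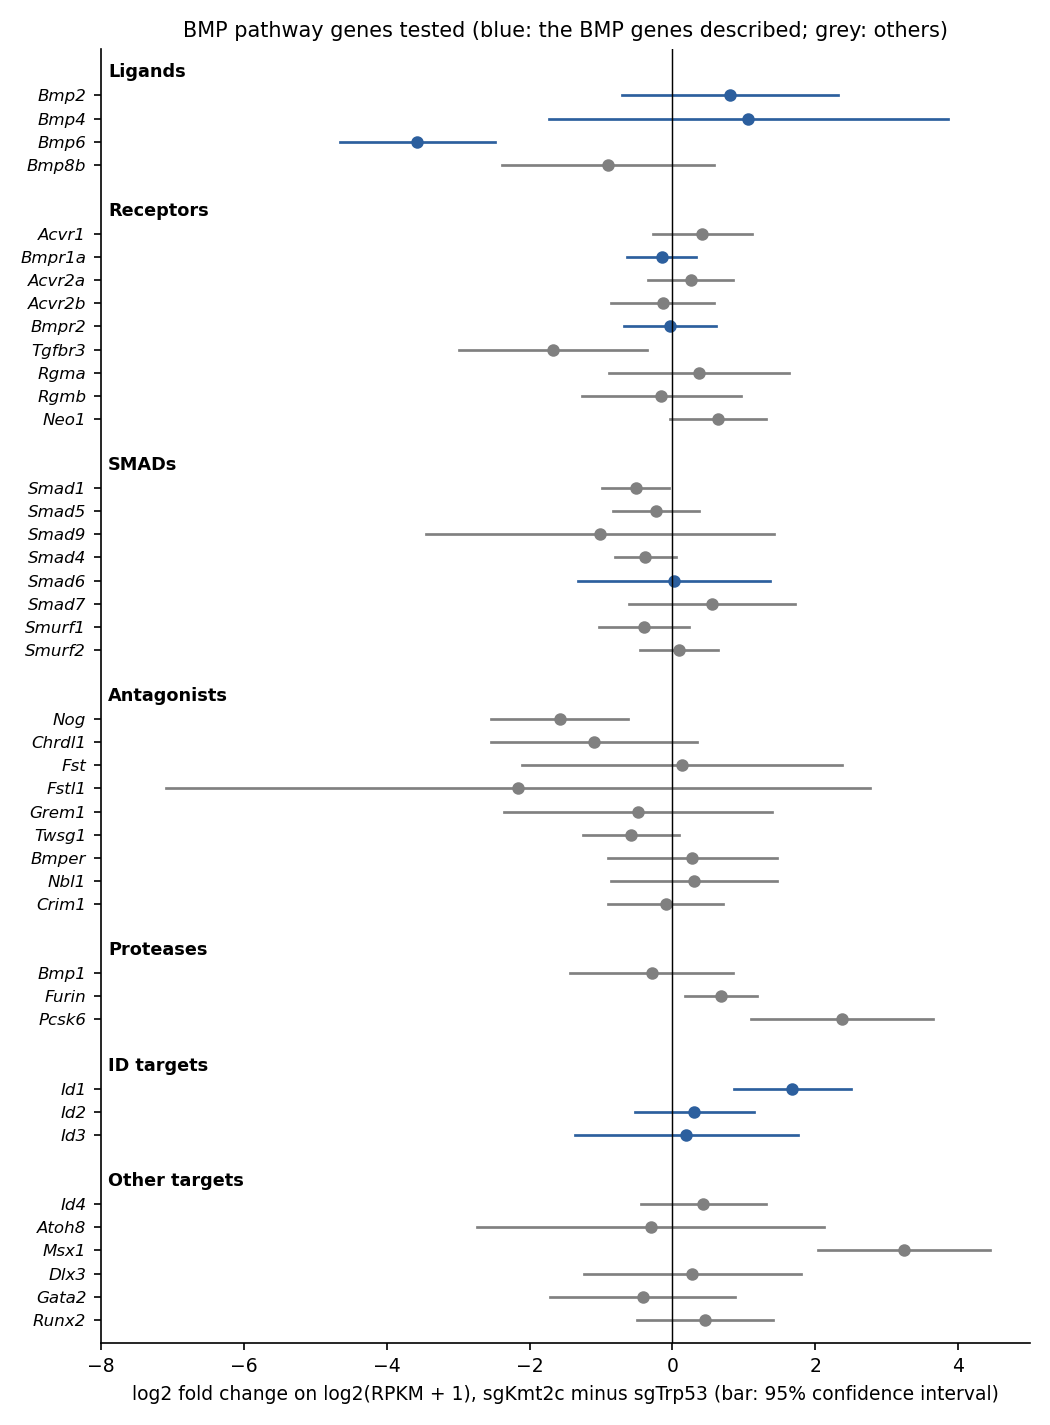
Log2 fold change on log2(RPKM + 1), sgKmt2c minus sgTrp53 (x axis), of the 42 BMP pathway genes tested, by role, with 95% confidence intervals from limma as bars and the genes described in full in blue. The intervals of *Bmp6*, *Tgfbr3*, *Smad1* and *Nog* lie under 0 and those of *Id1*, *Furin*, *Pcsk6* and *Msx1* above it, and no gene of the 42 had an adjusted p-value below 0.05.

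Over the wider pathway, 75 genes were listed, 70 had values and 42 were tested. None passed an adjusted p-value under 0.05 with limma or with limma voom. At an unadjusted p-value under 0.05 there were 4 higher and 4 lower genes (19.0% of 42, against 8.58% of all genes tested), and the lines did not overlap in 4 higher and 5 lower genes (21.4%, against 16.2%). The median log2 fold change was -0.0023, against -0.09 over all genes tested. The lists had been drawn up with earlier results of these data known.

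Of the 9 receptors and co-receptors tested, *Tgfbr3* alone had lines that did not overlap (11.1%, against 10.4% of all genes tested in this lower direction). It encodes betaglycan, which presents TGF-beta and some BMPs to their receptors, and lay at 4.44, 11.1 and 2.65 RPKM across the sg*Trp53* lines, compared with 0.139, 1.47 and 1.65 RPKM across the sg*Kmt2c* lines (log2 fold change -1.67, unadjusted p = 0.0203 and adjusted p = 0.494, limma). *Neo1*, which encodes neogenin, a receptor of the repulsive guidance molecules, gave 0.64 with overlapping lines (adjusted p = 0.597, limma).

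All 8 SMADs and SMAD ubiquitin ligases listed were tested. The lines of 2 did not overlap, both lower (25%, against 10.4% of all genes tested in this direction). *Smad1*, a transducer of BMP receptors, lay at 22.6, 27.7 and 22.2 RPKM across the sg*Trp53* lines, compared with 17.0, 17.9 and 14.9 RPKM across the sg*Kmt2c* lines, without overlap (log2 fold change -0.51, unadjusted p = 0.0353 and adjusted p = 0.557, limma). *Smad4*, the shared partner of all receptor-activated SMADs, did not overlap either, at 47.9 to 52.7 against 33.9 to 44.0 RPKM (log2 fold change -0.38, adjusted p = 0.608, limma). *Smad5*, *Smad7* and *Smad9* overlapped, with log2 fold changes of -0.23, 0.55 and -1.01 (adjusted p = 0.790, 0.747 and 0.770, limma).

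Of 9 antagonists tested, *Nog* had lines that did not overlap (11.1%, against 10.4% of all genes tested in this lower direction). Its product noggin binds BMP2, BMP4 and BMP7 tightly and BMP6 weakly. It had 43, 33 and 45 reads across the sg*Trp53* lines, compared with 0, 4 and 12 in the sg*Kmt2c* lines, or 3.89 ± 0.252 against 0.765 ± 0.835 RPKM (SD, n = 3 lines each). The log2 fold change was -1.58 (unadjusted p = 0.0062 and adjusted p = 0.388, limma). *Fstl1*, a secreted glycoprotein with effects on BMP signalling, varied most, from 0 RPKM in sg*Kmt2c* line 1 to 389 RPKM in sg*Trp53* line 2, and its lines overlapped (log2 fold change -2.16, adjusted p = 0.762, limma).

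Of 3 processing genes tested, 2 proprotein convertases, which cleave BMP precursors to release the active dimer, were higher in every sg*Kmt2c* line. Over all genes tested, 5.72% had lines that did not overlap in this direction. *Pcsk6* (PACE4) stood at 37.35, 15.2 and 26.3 RPKM across the sg*Trp53* lines, compared with 278, 78.9 and 105 RPKM across the sg*Kmt2c* lines. The lines did not overlap (log2 fold change 2.37, 95% confidence interval 1.10 to 3.64, unadjusted p = 0.0033 and adjusted p = 0.328, limma). *Pcsk6* overlaps another gene of the table, and its RPKM rests on a deposited transcript length of 619 bases. *Furin*, the convertase found in most cells, stood at 23.2, 23.5 and 26.2 RPKM and at 37.0, 33.4 and 49.6 RPKM (log2 fold change 0.68, unadjusted p = 0.0158 and adjusted p = 0.474, limma).

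Among the 8 BMP-responsive genes tested besides *Id1* to *Id3*, a list that also holds *Smad7* and *Smad9*, *Msx1*, a homeobox gene induced by BMP4 in the embryo, was higher in the sg*Kmt2c* lines without overlap, like *Id1*. It had 0, 0 and 6 reads across the sg*Trp53* lines, compared with 154, 88 and 34 in the sg*Kmt2c* lines, or at most 0.450 against 4.11 to 16.9 RPKM. It entered the test only through its sg*Kmt2c* values. The log2 fold change was 3.24 (95% confidence interval 2.03 to 4.44, adjusted p = 0.130, limma), and the adjusted p-value over the alternatives ran from 0.0778 to 0.413. The other 7 overlapped, so 12.5% of the 8 did not, against 5.72% of all genes tested in the higher direction.

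Several of the hepatic iron genes listed could hardly be read in these lines. *Hamp*, which encodes hepcidin, had 1, 1 and 0 reads across the sg*Trp53* lines, compared with 0, 1 and 0 in the sg*Kmt2c* lines, so no difference was detectable at this depth. The gene of the co-receptor hemojuvelin (*Hfe2* in the table) had a single read in a single line, and *Tmprss6*, whose protease cleaves it, did not exceed 0.200 RPKM. Of 10 iron genes listed, 9 had values and 4 were tested, and all 4 overlapped between the genotypes. *Tfrc*, the transferrin receptor, was well read, at 72.0 to 156 RPKM across the sg*Trp53* lines and 44.5 to 175 RPKM across the sg*Kmt2c* lines. It gave a log2 fold change of -0.42 (adjusted p = 0.809, limma).

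Markers of other cell types were read beside *Bmp6*. The 8 endothelial markers were near 0, summing to 0.401 to 0.971 RPKM across the sg*Trp53* lines, compared with 0.360 to 1.27 RPKM across the sg*Kmt2c* lines, and 7 of them stayed under 1 RPKM in every line. Of the 8 immune markers *Csf1r*, the receptor of macrophage colony-stimulating factor, lay at 10.0, 1.70 and 8.33 RPKM against 0.932, 0 and 0.967 RPKM, and the macrophage lysozyme gene *Lyz2* at 29.0, 17.1 and 45.3 RPKM against 0, 0.214 and 12.4 RPKM. Neither overlapped between the genotypes (adjusted p = 0.440 and 0.427, limma), as held in this lower direction for 10.4% of all genes tested. *Csf1r* had passed the filter on low values only through the sg*Trp53* lines. *Cd68*, the third immune marker tested and a macrophage gene, overlapped, at 7.60, 2.60 and 4.01 RPKM against 5.35, 5.29 and 1.71 RPKM (log2 fold change -0.17, adjusted p = 0.919, limma). *Ptprc*, the pan-leukocyte marker, did not exceed 0.0655 RPKM in any line, and 2 of the 8 were at 0 throughout. The immune list summed to 21.9 to 58.7 RPKM across the sg*Trp53* lines and to 5.51 to 15.4 RPKM across the sg*Kmt2c* lines. *Lyz2* alone gave most of the sum in each sg*Trp53* line and in sg*Kmt2c* line 3, and 5 of the 8 markers stayed under 1 RPKM in every line. The part of the immune list in the *Bmp6* difference was not tested.

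The bHLH factors on which ID proteins act were compared last. Of 7 tested, the lines of 2 (*Tcf12* and *Twist1*) did not overlap, both lower (28.6%, against 10.4% of all genes tested in this direction). *Tcf3* and *Tcf4*, which encode E proteins, overlapped, with log2 fold changes of -0.07 and -0.36 (adjusted p = 0.948 and 0.813, limma). *Tcf12*, the third E protein gene, did not overlap, at 25.7, 36.0 and 26.8 RPKM against 21.4, 25.5 and 20.9 RPKM (log2 fold change -0.36, adjusted p = 0.669, limma). *Twist1*, a mesenchymal bHLH gene that passed the filter only through the sg*Trp53* lines, had 36, 65 and 23 reads across the sg*Trp53* lines, compared with 0, 4 and 1 in the sg*Kmt2c* lines (log2 fold change -2.00, unadjusted p = 0.00347 and adjusted p = 0.328, limma). *Hes1*, a Notch target, gave 0.84 with overlapping lines (adjusted p = 0.639, limma).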

How the data were processed

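RNA of 6 cell lines was sequenced, 3 per genotype, and grouped by the sample titles. The authors trimmed adaptors with Trimmomatic, aligned to GRCm38 with STAR, counted with HTSeq and deposited RPKM values. The deposited table has 21065 rows, 209 of them without values, and 6 further sample columns that were not used. The authors' deposited table of fold changes and p-values from DESeq2 1.8.2 was not used. RPKM multiplied by the deposited transcript length gave whole reads for 100% of values above 0 (tolerance 0.001 reads). Library totals of 3680068 to 6878625 reads set the precision of low values.

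Genes reaching an RPKM of 1 in 3 or more lines were tested with limma 3.58.1 in R 4.3.3 (eBayes with trend) on log2(RPKM + 1), genotype as the only term, with Benjamini-Hochberg adjustment over all 11617 genes and 95% confidence intervals. Fold changes on this scale understate the change of low genes. With lines as replicates, the tests set the difference between genotypes against the spread between lines, moderated over all genes tested. Exact permutation tests (SciPy 1.17.1) were two-sided. The script was tested on simulated data. Promoter windows and motifs came from the RefSeq table of GRCm38.p6. Plots were drawn with matplotlib 3.10.9.

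Named were the 10 BMP genes, all type I and II receptors, signalling SMADs, E proteins, *Hamp*, the targeted genes, list members whose lines did not overlap with an unadjusted p-value under 0.05, the 2 largest changes of each list, and the 5 nearest profiles to *Bmp6* and *Id1*. Named outside this rule were *Alb*, *Lrat*, *Cd68*, *Ptprc*, *Hfe2* and *Tmprss6*, and, after their values were seen, *Atoh8*, *Bmp8b* and *Col3a1*. The members and lists were chosen with earlier results of these data known. Alternatives changed the pseudocount (0.1, 0.5), filter, scaling, moderation, test (voom), independence of lines 2 and 3, a replicate block, and the lines included.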

Additional observations from a re-analysis of the deposited data

How the results depend on the processing

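The counts of target, BMP and pathway genes past an adjusted p-value under 0.05 (limma) were 0 in the reported fit and in each of the 16 alternative fits, against 1, 2 and 8 at an unadjusted p-value under 0.05. Over all genes tested the count was 15. It was 6 with a pseudocount of 0.1, 5 with no filter, 4 with limma voom, 0 with sg*Kmt2c* lines 2 and 3 as a single sample (1053 genes at an unadjusted p-value under 0.05) and 0 to 8 with a line left out (563 to 1477), above 0 only without sg*Kmt2c* line 1, and 997 without adjustment. *Bmp6* kept its direction in all 16, between -5.01 (voom, adjusted p = 0.314) and -3.13 (without sg*Trp53* line 1), with its lowest adjusted p of 0.0587 under quantile normalization (limma).

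Same-numbered lines did not deviate together throughout (correlation of deviations 0.19, 0.40 and 0.03 for numbers 1, 2 and 3), and 4 of the 6 lines correlated best with their own number, so the numbers were not taken as pairs. With the replicate number as a block, 0 genes passed, 1085 had an unadjusted p-value under 0.05, and *Bmp6* had an adjusted p of 0.112 (limma).

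Among log2 fold changes that passed no test, the sign turned for *Bmpr2* (0.0350 with median-of-ratios and 0.0405 with quantile scaling), *Tcf3* (0.0109 with median-of-ratios) and *Smad6* (-0.11 with lines 2 and 3 as a single sample). With a line left out in turn, the range crossed 0 for *Id2* (-0.0133 to 0.49), *Id3* (-0.27 to 0.85), *Smad6* (-0.50 to 0.39), *Bmpr2* (-0.15 to 0.13), *Acvr2b* (-0.27 to 0.0888). It also did for *Smad5* (-0.38 to 0.00639), *Smad7* (-0.00506 to 0.89), *Smad9* (-1.73 to 0.10), *Tcf3* (-0.30 to 0.24), *Tcf4* (-0.74 to 0.0034), *Atoh8* (-1.04 to 0.78), *Tfrc* (-0.93 to 0.0464), *Fstl1* (-3.68 to 0.19), *Col3a1* (-2.61 to 1.253), *Apob* (-0.70 to 5.19), *Kmt2c* (-0.54 to 0.11). These causes were not tested. Values of few reads, as for *Bmp6* in the sg*Kmt2c* lines, *Bmp7*, *Nog* and *Msx1*, are limited by depth.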

Other observations

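Across the 6 lines, the 5 tested genes whose profile of log2(RPKM + 1), centred on its mean, lay nearest to that of *Bmp6* by Euclidean distance were *Nox4* (0.969), *Fhod3* (1.15), *Mxra7* (1.42), *Tpm2* (1.51) and *Lrp2* (1.54). All 5 were lower in the sg*Kmt2c* lines by the mean. A gene chosen by closeness to a profile shares its direction through that choice, so this is no independent evidence, here or for *Id1*. *Nox4*, *Mxra7* and *Lrp2* passed the filter on low values only through the sg*Trp53* lines, where they are high. *Nox4*, an NADPH oxidase gene, lay at 14.4, 6.98 and 13.0 RPKM against 0, 0 and 0.395 RPKM and passed the threshold (adjusted p = 0.0359, limma), as did *Mxra7* (adjusted p = 0.0359, limma), though over the alternative fits their adjusted p-values ran from 0.0229 to 0.212 and from 0.0213 to 0.211 (limma), and were above 0.05 whenever a line was left out. Nearest to *Id1* were *Klhdc1* (0.503), *Sdc1* (0.564), *Gcnt2* (0.594), *Cd14* (0.609) and *Commd3* (0.664). *Sdc1*, which encodes the heparan sulfate proteoglycan syndecan-1, lay at 341, 423 and 559 RPKM against 1692, 1361 and 958 RPKM (log2 fold change 1.59, adjusted p = 0.215, limma). *Cd14*, a lipopolysaccharide co-receptor gene, lay at 11.4, 11.6 and 13.6 RPKM against 70.3, 30.7 and 34.5 RPKM (adjusted p = 0.236, limma). None of the 5 neighbours of *Id1* passed the adjusted threshold in limma.

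*Bmp8b*, chosen after its values were seen, had the highest mean RPKM, a level per length, of the BMP ligands listed, at 67.9, 27.6 and 114 RPKM across the sg*Trp53* lines, compared with 18.1, 27.8 and 62.3 RPKM across the sg*Kmt2c* lines (log2 fold change -0.90, adjusted p = 0.710, limma). *Bmp4* exceeded it in sg*Trp53* line 2 and in sg*Kmt2c* lines 1 and 2. *Bmp8b* overlaps *Oxct2b* and *Ppie* in the table, so its reads cannot be assigned to it with certainty.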
